A study of Homo sapiens with 3 samples.

Results

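The genes described here encode the nuclear-encoded subunits of the mitochondrial respiratory chain and of the ATP synthase, with the electron carrier cytochrome c. Members were probe sets that named exactly 1 gene whose symbol is that of a complex I subunit (NDUFA, NDUFB, NDUFC, NDUFS or NDUFV followed by a number) or of a complex II subunit (SDHA, SDHC and SDHD here), begins as those of complex III (UQCR and CYC1), complex IV (COX4 to COX8) or ATP synthase (ATP5F, ATP5M, ATP5P, ATP5IF) subunits, or is CYCS. The rule used names and no measured value. It found 194 of the 49395 probe sets, which stand for 84 of 18132 genes: 35 of complex I, 3 of complex II, 9 of complex III, 17 of complex IV, 19 of the ATP synthase, and CYCS.

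The study asked how NSC-631570, an extract of the greater celandine Chelidonium majus, alters gene expression in FaDu cells. FaDu is an established human cell line that was derived from squamous cell carcinoma of the lower pharynx. Treated cells received 10 µg/ml of the extract for 48 h and gave 1 array, the NSC-631570 array. Control cells received distilled water for 48 h and gave 2 arrays, untreated 1 and untreated 2. All were grown in RPMI medium with fetal calf serum, and total RNA was read on Affymetrix PrimeView arrays. The treated condition has no replicate, and a single line limits the model. The labels do not say that the untreated arrays came from separate cultures. The p-values therefore rest only on the spread between these untreated arrays, which limma moderated over all tested genes. An SE given below is thus not the spread of its gene alone.

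The respiratory chain sits in the inner mitochondrial membrane. Complexes I and II pass electrons from NADH and succinate to ubiquinone, complex III passes them on to cytochrome c, and complex IV passes them to oxygen. Complexes I, III and IV pump protons outwards as they do so, and the ATP synthase, complex V, lets protons flow back to make ATP. Tumour lines often draw much of their energy from glycolysis but keep a working chain. Most subunits are encoded in the nucleus, each complex other than II also holds subunits encoded in mitochondrial DNA, and mRNA levels do not measure the assembled complexes.

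Signals were log2 values per probe set, and the array medians were 6.55 (NSC-631570), 6.62 (untreated 1) and 6.57 (untreated 2). A gene was read from its brightest probe set and tested when its mean signal reached 5.85, which left 11932 genes. Of the 9 squamous epithelial markers fixed for this work 6 were tested, with signals of 10.35 or more on each array. KRT5 and SFN were among them, and no probe set naming 1 gene was found for KRT6A, KRT17 and TP63. Of the markers of other cells, 2 of 7 for fibroblasts, 3 of 5 for leukocytes, 2 of 4 for striated muscle and 3 of 3 for endothelium passed the filter, with no signal above 7.90. The fibroblast markers DCN and LUM, the pan-leukocyte marker PTPRC and the muscle marker CKM lay below it. Array controls differed at the 5′ end of transcripts. For ACTB, the control probe set nearest the 5′ end read 12.23 on the NSC-631570 array, against 13.61 and 13.60 on the untreated arrays (2.59-fold lower), and the one for GAPDH read 14.00, against 14.45 and 14.51 (1.39-fold lower). The 3′ control probe sets differed from the untreated mean by 0.20 for ACTB and by −0.01 for GAPDH. The part of this 5′ difference in the values below was not tested.

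The 78 subunit genes that passed the filter differed little between NSC-631570 and untreated cells. None passed the limma test with Benjamini-Hochberg adjustment over all tested genes, where 8 of 11932 genes (0.067%) did. At an unadjusted limma p under 0.05, 4 subunit genes were higher, where 12.2% of all tested genes were, and 3 were lower, where 2.24% were. The median log2 difference, NSC-631570 minus the untreated mean, was 0.16 over the 78 genes and 0.12 over all tested genes. The lowest value was −0.79 and the highest 0.72, and the SD between genes was 0.30, against 0.37 for all tested genes.

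Most subunit genes stood slightly above the untreated arrays in the deposited scaling, but their median was −0.04, and that of all tested genes −0.08, once the tested genes of each array were set to a common median. In both scalings the subunit median lay a little above that of all tested genes. Of 78, 47 (60.3%) lay above both untreated arrays and 14 (17.9%) below both. Over all tested genes these shares were 51.6% and 22.5%. Few were far from them. NDUFA13 alone was at least 1.5-fold above both untreated arrays, where 5.84% of tested genes were, and NDUFS7 and NDUFA10 were at least 1.5-fold below both, where 1.23% were. The size of the upward difference depended on the untreated array used. Untreated 1 was brighter than untreated 2 in 58 of the 78 subunit genes (74.4%), against 53.0% of all tested genes. The subunit median was therefore 0.09 above untreated 1, under the 0.11 of all tested genes, and 0.21 above untreated 2, over their 0.13.

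**Figure D1:**
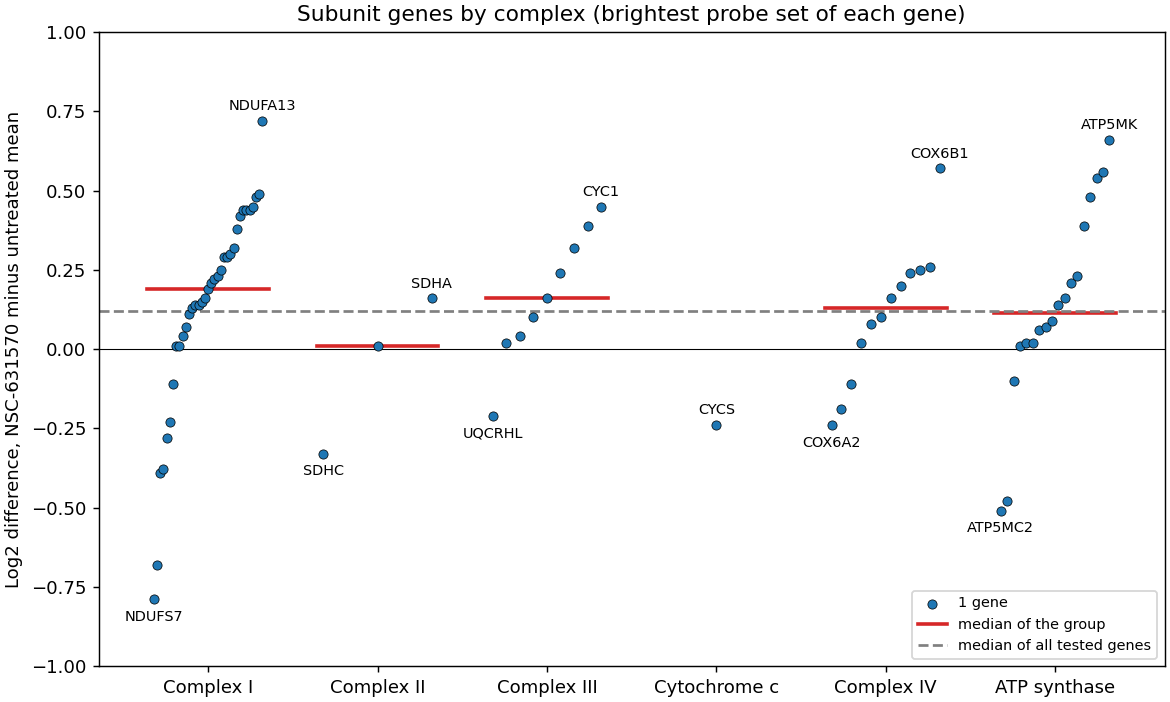
Log2 difference (NSC-631570 minus the mean of 2 untreated arrays) of each tested subunit gene, 1 point per gene, grouped by complex, with red lines for group medians and a dashed line for the median of all tested genes (0.12). The group medians lie between 0.01 and 0.19, and the points run from −0.79 (NDUFS7) to 0.72 (NDUFA13). Cytochrome c is 1 gene and has no median line, and with the tested genes set to a common median all group medians lie below 0 (−0.18 for complex II to −0.01 for complex I).

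Complex I, the NADH to ubiquinone oxidoreductase, had the most subunits and both ends of the range. All 35 genes were tested, 23 (65.7%) lay above both untreated arrays, 6 (17.1%) below both and 6 between them, with a median of 0.19. Over all tested genes 51.6% lay above both and 22.5% below both. The subunit gene furthest above was NDUFA13, an accessory subunit of the membrane arm also known as GRIM-19, a regulator of STAT3. It read 12.62 on the NSC-631570 array, against 11.99 and 11.82 on the untreated arrays (1.65-fold higher, log2 difference 0.72 ± 0.22, SE from limma, adjusted p = 0.207). A second probe set gave 0.69. The third, near the filter with 5.93 against 6.33 and 6.66, gave −0.56, so the probe sets of NDUFA13 disagreed.

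The lowest was NDUFS7, a core subunit of the quinone module that carries the last iron-sulfur cluster before ubiquinone. It read 9.79 on the NSC-631570 array, against 10.55 and 10.62 on the untreated arrays (1.73-fold lower, −0.79 ± 0.22, limma adjusted p = 0.173). Its 2 other probe sets past the filter were lower by similar amounts, −0.81 and −0.89, so each of the 3 lay below both untreated arrays. NDUFA10, an accessory subunit of the membrane arm related to nucleoside kinases, read 10.62 against 11.29 and 11.31 (1.60-fold lower, −0.68 ± 0.21, limma adjusted p = 0.22). Its 2 other probe sets stood at −1.16 and −0.38, again all on the same side.

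The modules of complex I were not tested against each other. Their counts stand beside 51.6% above both untreated arrays and 22.5% below both over all tested genes. The distal membrane arm, made here of the 11 NDUFB subunits, had 9 genes above both untreated arrays and none below both (median 0.21), from NDUFB3 at −0.11 to NDUFB1 at 0.48. All module counts are for the deposited scaling. With the tested genes set to a common median, the complex I median was −0.01 and NDUFB9 stood at −0.15. In the NADH-oxidising module, all 3 core genes and 5 of 7 accessory genes were above both untreated arrays and the other 2 accessory genes below both. The core genes NDUFV1 (0.29), NDUFV2 (0.16) and NDUFS1 (0.15) stood with the accessory genes NDUFA2 (0.45), NDUFA7 (0.32), NDUFA6 (0.23) and NDUFA12 (0.14). The accessory NDUFV3 read 11.58 on the NSC-631570 array and 11.09 and 11.10 on the untreated arrays (0.49), though its other probe sets ran from −0.44 to 0.62. The genes below were NDUFS4 (−0.39), a subunit whose loss causes Leigh syndrome, and NDUFS6 (−0.23). In the quinone module 2 of 3 core genes were above both untreated arrays and 1 below both. There NDUFS8 (0.42, its other probe set −0.20) and NDUFS3 (0.30) stood opposite to NDUFS7, and of the 2 accessory genes NDUFA5 was at −0.38 and NDUFA9 at 0.07. Both of these modules therefore held genes above and below the untreated pair. In the proximal membrane arm 4 of 9 genes were above both untreated arrays, 2 below both and 3 between them (median 0.13). There NDUFA3 (0.44) and NDUFA8 (0.38) stood with NDUFA13, and NDUFS5 (−0.28) with NDUFA10. NDUFA1 (0.13) and NDUFB9 (0.04), further membrane arm subunits, were within 0.13 of the untreated mean. No complex I gene passed the limma test.

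Complex II, succinate dehydrogenase, is also an enzyme of the tricarboxylic acid cycle, and its probe sets disagreed. Of its 3 genes none lay above both untreated arrays and 1 below both, against 51.6% and 22.5% of all tested genes. SDHA, the flavoprotein, read 11.82 on the NSC-631570 array, between 11.42 and 11.91 on the untreated arrays. SDHC, a membrane anchor, read 10.90 against 11.31 and 11.15 (−0.33 ± 0.22, limma adjusted p = 0.56), and of its 4 other probe sets 3 were lower (−0.50, −0.56 and −0.82) and 1 higher (0.35). SDHD, the other anchor, read 12.01 against 12.06 and 11.93 on its brightest probe set, a difference of 0.01. Its other probe sets stood at −0.07, −0.69 and −0.82, the last value given by a pair of probe sets with the same signals on every array. Read as the median over a gene's probe sets, the complex II median was −0.50 in place of 0.01.

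Complex III, the cytochrome bc1 complex, had 7 of 9 genes (77.8%) above both untreated arrays and 1 (11.1%) below both (median 0.16). The shares over all tested genes were 51.6% and 22.5%. CYC1, which encodes the haem protein cytochrome c1, was the furthest above, with 12.69 on the NSC-631570 array, against 12.26 and 12.22 on the untreated arrays (1.36-fold higher, 0.45 ± 0.21, limma adjusted p = 0.398). Its 3 probe sets gave 0.42, 0.45 and 0.47. The small accessory genes UQCRQ (0.39), UQCR11 (0.32) and UQCR10 (0.24) followed. UQCRH, the acidic hinge protein that meets cytochrome c, read 13.40 against 13.56 and 13.18, within the untreated pair. Its near copy UQCRHL read 11.63 against 11.88 and 11.80 (−0.21), and signals of these related genes may be shared between their probe sets. UQCRC1, a core protein of the matrix side, differed by 0.10 on its brightest probe set and by −0.78 and −0.85 on its 2 others. Cytochrome c itself (CYCS), which also starts caspase activation when released, was below both untreated arrays, with 12.78 against 12.95 and 13.10 (−0.24 ± 0.22, limma adjusted p = 0.706).

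Complex IV, cytochrome c oxidase, has tissue-specific copies of several subunits. Of 17 genes 12 were tested, 7 (58.3%) above both untreated arrays and 3 (25.0%) below both (median 0.13). The shares over all tested genes were 51.6% and 22.5%. COX6B1, the intermembrane-space subunit that joins the dimer, was the furthest above, with 13.10 on the NSC-631570 array, against 12.70 and 12.38 on the untreated arrays (1.48-fold higher, 0.57 ± 0.24, limma adjusted p = 0.324). COX7A2, the widely expressed form of subunit 7A, read 13.58 against 13.33 and 13.30 (0.26), and its 3 other probe sets past the filter gave 0.41, 0.41 and 0.44, all above both untreated arrays. COX4I1 (0.25), COX5A (0.24), COX6A1 (0.20) and COX8A (0.16) were also above both, although another probe set of COX4I1 gave −0.25. COX7A2L, which helps join complexes III and IV, stood at 0.10 and COX7B at 0.08. COX7C was at −0.11 and COX5B at −0.19.

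The alternative forms were near or below the filter in treated and untreated cells alike. COX4I2, known from lung, read 4.95 on the NSC-631570 array, against 5.02 and 4.88. The muscle form COX7A1 read 4.93 against 5.12 and 4.96. Of the testis forms, COX6B2 read 5.72 against 5.70 and 5.64, COX7B2 read 3.36 against 3.63 and 3.33, and COX8C read 5.25 against 4.78 and 5.08. The mean of each of these lay under 5.85, and the muscle form COX6A2, at 5.96 against 6.27 and 6.13, lay just above it. No detection call was made, so these signals were not shown to be above background. COXFA4, once named NDUFA4 and now counted as a complex IV subunit, falls outside the naming rule. It read 13.46 against 13.39 and 13.06 (0.23), and COXFA4L2, the related gene known to respond to hypoxia, read 5.15 against 5.09 and 5.15.

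The ATP synthase joins a catalytic F1 head to a membrane ring. Of its 18 tested genes 10 (55.6%) lay above both untreated arrays, against 51.6% of all tested genes (median 0.11). The complex had 2 (11.1%) below both, against 22.5%. Its small supernumerary membrane subunits, which hold the dimer in place and shape the cristae, stood highest, with a median of 0.54 over 5 genes. ATP5MK, also called DAPIT, read 13.44 on the NSC-631570 array, against 12.94 and 12.61 on the untreated arrays (1.58-fold higher, 0.66 ± 0.24, limma adjusted p = 0.265). Its 2 other probe sets gave 0.60 and 0.85. ATP5MF, subunit f, read 13.54 against 13.12 and 12.84 (0.56 ± 0.23, limma adjusted p = 0.324), and its 3 other probe sets past the filter gave 0.48, 0.54 and 0.56. ATP5MJ, a small proteolipid, read 13.15 against 12.77 and 12.44 (0.54 ± 0.24, limma adjusted p = 0.348). Its other probe sets past the filter gave 0.17, 0.37 and 0.57, and the one at 0.37 lay between the untreated arrays. ATP5ME, subunit e, stood at 0.39 and ATP5MG, subunit g, at 0.02. In ATP5MK, ATP5MF, ATP5MJ and ATP5ME untreated 2 was the dimmer array, so the distance from untreated 1 alone was smaller: a median of 0.38 over the 5 genes, against 0.70 from untreated 2.

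The F1 head lay close to the untreated arrays. Its 5 genes ran from 0.01 for ATP5F1A to 0.23 for ATP5F1C, with the catalytic ATP5F1B at 0.07 (13.42 against 13.36 and 13.33). ATP5F1A, the alpha subunit, gave 0.01 and 0.02 on a pair of probe sets and −0.81 and −0.88 on another pair. In the peripheral stalk ATP5PF (0.48) and ATP5PD (−0.48) stood on opposite sides, with ATP5PO at 0.09 and ATP5PB at −0.10. ATP5PD, subunit d, read 11.22 on the NSC-631570 array, against 11.73 and 11.68 on the untreated arrays (1.40-fold lower, −0.48 ± 0.21, limma adjusted p = 0.357). The membrane ring protein, subunit c, is encoded by 3 genes with the same mature product. ATP5MC2 read 10.84 against 11.28 and 11.40 (1.42-fold lower, −0.51 ± 0.22, limma adjusted p = 0.345), while ATP5MC1 (0.02) and ATP5MC3 (0.14) lay between the untreated arrays. ATP5IF1, the inhibitor that stops the enzyme from running backwards, stood at 0.16 (12.49 against 12.40 and 12.26). ATP5MGL, a subunit g-like gene, was below the filter.

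**Figure D2:**
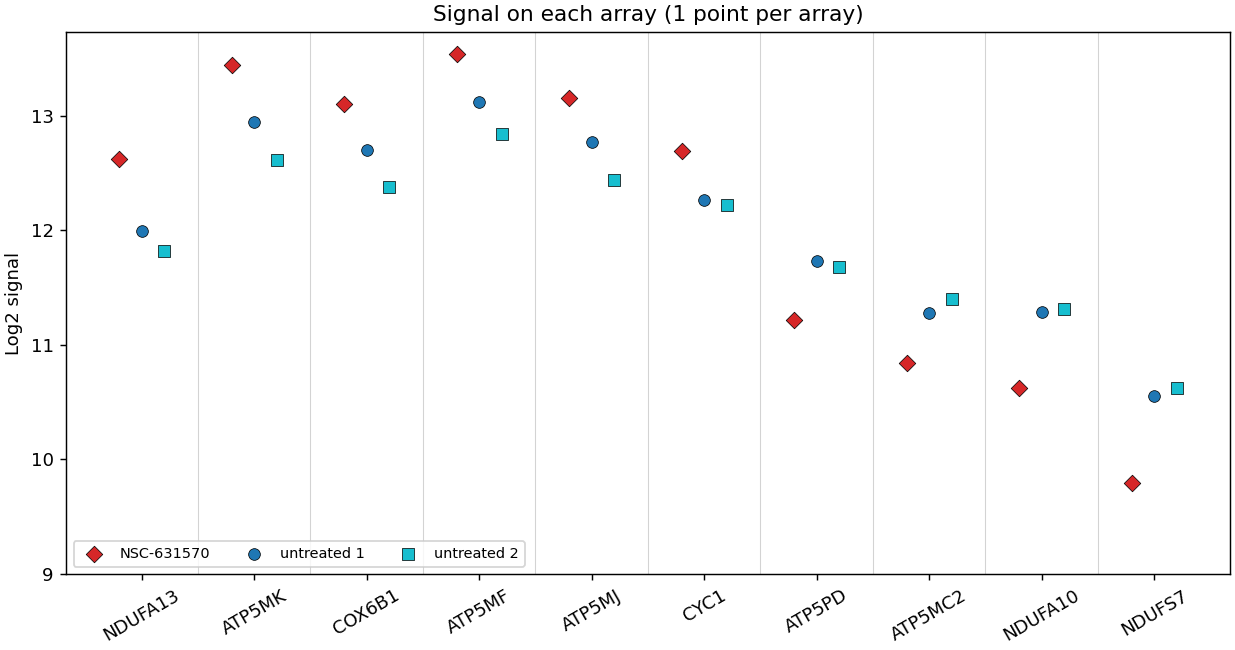
Log2 signal of 10 subunit genes on each array, with the NSC-631570 array as red diamonds, untreated 1 as blue circles and untreated 2 as light blue squares. NDUFA13, ATP5MK, COX6B1, ATP5MF, ATP5MJ and CYC1 lie above both untreated arrays, and ATP5PD, ATP5MC2, NDUFA10 and NDUFS7 below both, with no replicate of the treated array. The genes were chosen among those with large differences, so the absence of overlap is no result. Over all tested genes 51.6% lie above both untreated arrays and 22.5% below both. The signal axis starts at 9, and signals are not compared between genes.

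Promoters of the subunit genes with the 3 highest and 3 lowest differences are shown because these genes stood furthest apart. Each is the 250 bases before the RefSeq transcription start, 5′ to 3′, in lower case, with capitals for matches to any of 6 motifs. The motifs, searched on both strands, were those of NRF1 (GCGC, any 2 bases, then GCGC), ETS factors such as GABP (CCGGAAG), YY1 (AAGATGGCG), the cAMP response element (TGACGTCA), the oestrogen-related receptors (CAAGGTCA) and the xenobiotic response element bound by the aryl hydrocarbon receptor (TNGCGTG). The first 3 sequences belong to genes above both untreated arrays and the last 3 to genes below both.
NDUFA13 (GRCh38.p14, chr19:19515975-19516224, plus strand): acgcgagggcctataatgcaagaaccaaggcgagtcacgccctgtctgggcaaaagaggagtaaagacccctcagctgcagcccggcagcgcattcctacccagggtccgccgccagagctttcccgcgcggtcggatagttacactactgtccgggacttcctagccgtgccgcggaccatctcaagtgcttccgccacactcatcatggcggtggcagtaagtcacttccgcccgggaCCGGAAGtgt
ATP5MK (GRCh38.p14, chr10:103396476-103396725, minus strand): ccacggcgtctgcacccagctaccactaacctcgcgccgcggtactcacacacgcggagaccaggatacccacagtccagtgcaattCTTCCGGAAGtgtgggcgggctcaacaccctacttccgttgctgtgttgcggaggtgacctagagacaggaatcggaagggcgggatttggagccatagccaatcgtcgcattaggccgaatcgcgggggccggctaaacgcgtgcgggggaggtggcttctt
COX6B1 (GRCh38.p14, chr19:35648073-35648322, plus strand): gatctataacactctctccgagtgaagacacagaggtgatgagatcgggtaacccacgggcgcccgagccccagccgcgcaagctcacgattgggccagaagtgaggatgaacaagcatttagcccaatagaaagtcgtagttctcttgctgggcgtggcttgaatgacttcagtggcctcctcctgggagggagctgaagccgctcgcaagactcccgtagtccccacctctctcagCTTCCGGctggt
NDUFS7 (GRCh38.p14, chr19:1383657-1383906, plus strand): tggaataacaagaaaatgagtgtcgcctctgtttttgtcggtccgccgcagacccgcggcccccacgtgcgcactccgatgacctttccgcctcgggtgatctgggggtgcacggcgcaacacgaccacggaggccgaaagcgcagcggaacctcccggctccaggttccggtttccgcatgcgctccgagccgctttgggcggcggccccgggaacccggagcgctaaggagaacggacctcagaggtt
NDUFA10 (GRCh38.p14, chr2:240025343-240025592, minus strand): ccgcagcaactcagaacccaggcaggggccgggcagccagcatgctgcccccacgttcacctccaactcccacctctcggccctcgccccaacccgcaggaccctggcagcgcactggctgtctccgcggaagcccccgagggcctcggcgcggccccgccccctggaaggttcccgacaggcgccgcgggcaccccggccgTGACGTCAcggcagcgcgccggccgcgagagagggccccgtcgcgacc
ATP5MC2 (GRCh38.p14, chr12:53676084-53676333, minus strand): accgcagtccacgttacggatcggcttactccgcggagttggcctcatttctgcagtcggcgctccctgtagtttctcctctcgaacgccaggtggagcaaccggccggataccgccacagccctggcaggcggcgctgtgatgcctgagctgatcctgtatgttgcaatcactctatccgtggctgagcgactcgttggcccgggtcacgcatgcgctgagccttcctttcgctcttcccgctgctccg
Each of the genes above held the ETS motif, and in ATP5MK a match on each strand overlapped in the 10 bases in capitals. NDUFA10 held the cAMP response element, and NDUFS7 and ATP5MC2 held none of the 6 in these 250 bases. A match is a run of letters and not a shown binding site.

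Over a window of 300 bases, from 250 before to 50 after the start, 68 subunit genes had a RefSeq promoter. The NRF1 motif was in 25.0% of them, against 15.6% of 9768 tested genes and 8.78% of 27305 promoters in all. The ETS motif was in 27.9%, against 18.9% and 10.7%, and the YY1 motif in 10.3%, against 4.01% and 1.85%. The oestrogen-related receptor motif was in 5.88%, against 0.819% and 1.33%, and rests on 4 promoters (ATP5MG, COX8A, NDUFA5 and SDHD). The cAMP response element was also in 5.88%, against 3.29% and 1.98%. The xenobiotic response element was in 4.41%, against 7.33% and 5.51%. Of 41 promoters of subunit genes above both untreated arrays 12 held the NRF1 motif and 14 the ETS motif, and of 11 promoters of those below both none held the first and 2 the second. The YY1 motif was in 4 of the 41 and 2 of the 11, the cAMP response element in 2 and 1, the oestrogen-related receptor motif in 1 and 1, and the xenobiotic response element in 3 and none. These counts and shares are descriptions of the windows, with no test.

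Probe sets of the same gene gave a second view of the subunits. Of 194 probe sets 165 passed the filter, 88 (53.3%) above both untreated arrays and 38 (23.0%) below both. Over the 27249 probe sets of all genes these shares were 40.7% and 34.5%. The median was 0.10, against 0.03 over all genes. At least 1.5-fold above both untreated arrays were 4 of the 165, where 4.15% of all probe sets were, and at least 1.5-fold below both were 13, where 6.77% were. Tested one by one with limma, 1 passed at an adjusted p under 0.05: a probe set of NDUFA10 with 8.68 on the NSC-631570 array, against 9.83 and 9.85 on the untreated arrays (−1.16 ± 0.22, adjusted p = 0.0384 over all probe sets). In that fit 2.38% of all probe sets were called lower and 0.554% higher. The next in order by p were probe sets of NDUFS7 (−0.89), ATP5F1A (−0.88), SDHC (−0.82) and SDHD (−0.82), with adjusted p-values between 0.0808 and 0.104. Among the 165 subunit probe sets, a probe set of ATP5MK had the highest difference, 0.85.

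Disagreement within a gene is described here with no test. Of 47 subunit genes with at least 2 probe sets past the filter, 10 (21.3%) had probe sets more than 0.5 apart on the log2 scale, against 42.2% of 7124 genes in all. The median distance was 0.18, against 0.41. The 10 genes were NDUFA10, NDUFS1, NDUFC2, NDUFS8, NDUFV3, NDUFA13, SDHC, SDHD, UQCRC1 and ATP5F1A. In 4 of them, NDUFS1, SDHD, UQCRC1 and ATP5F1A, the brightest probe set was within 0.15 of the untreated mean while another stood at −0.65 or lower. For NDUFS1 that other probe set lay near the filter, with 5.86 on the NSC-631570 array, against 6.37 and 6.65. The remaining probe sets of NDUFS1 gave 0.01, 0.10 and 0.12. The 5′ control of ACTB, given above, was 2.59-fold lower on the same array. The positions of the probe sets on the transcripts were not used here, and the part of transcript position was not tested.

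**Figure D3:**
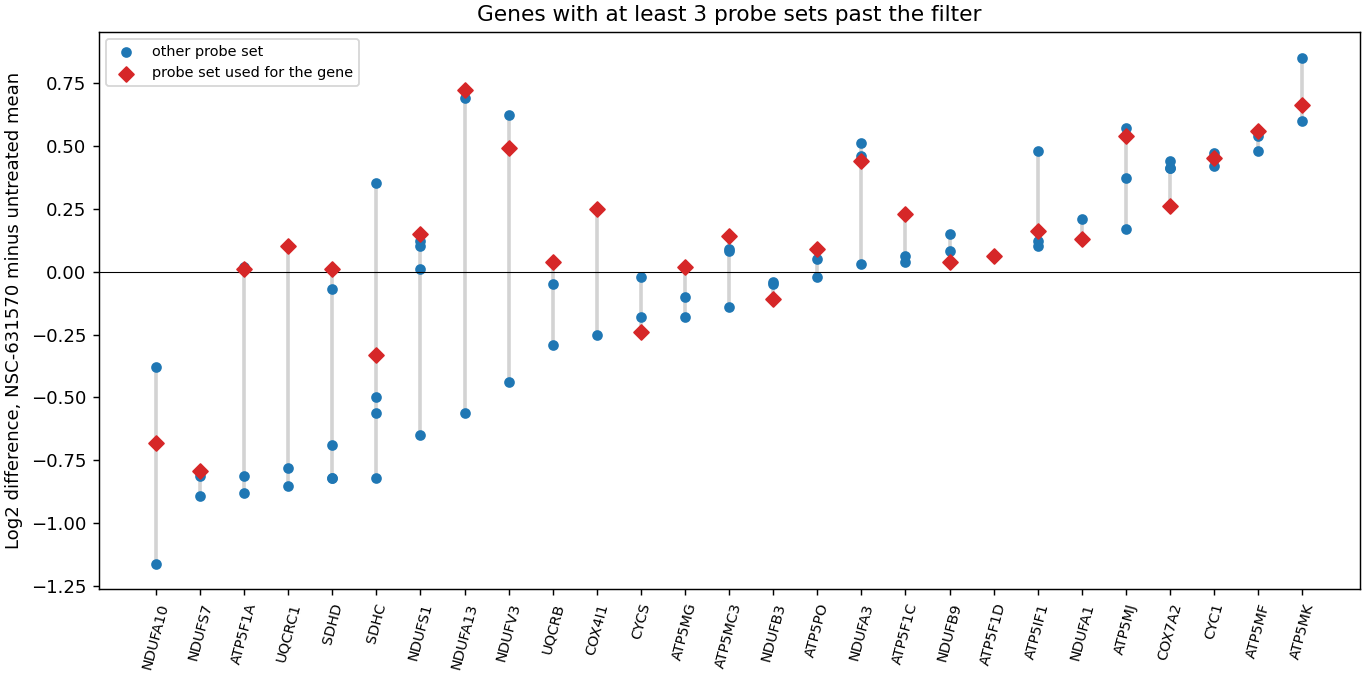
Log2 difference (NSC-631570 minus the untreated mean) of every probe set past the filter, for subunit genes with at least 3 of them, with the probe set used for the gene as a red diamond, the others as blue points and a grey bar over their range. ATP5MK, ATP5MF, CYC1 and COX7A2 have all probe sets above 0, as do NDUFA1, NDUFA3, NDUFB9, ATP5F1C, ATP5F1D, ATP5IF1 and ATP5MJ. NDUFS7 and NDUFA10 have all below 0, as do NDUFB3 and CYCS. ATP5F1A, UQCRC1 and SDHD have their used probe set near 0 and others below it.

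Other genes that serve the chain were read from lists, and no gene of these lists passed the limma test. The counts of each list stand beside 51.6% above both untreated arrays and 22.5% below both over all tested genes. Of 19 tested complex I assembly genes 11 lay above both untreated arrays and 6 below (median 0.13). These counts include NDUFAB1 (0.13), which is itself a complex I subunit but falls outside the naming rule. DMAC1 stood farthest above (12.74 against 12.09 and 12.13, 0.63), and COA1 furthest below (−0.47). Of 13 assembly genes of complexes II and III 7 (53.8%) were above both, near the share of all tested genes, and none below both (median 0.14). SDHAF1, an iron-sulfur factor of complex II, was at 0.78 (9.84 against 8.94 and 9.19). Of 26 assembly genes of complex IV 10 were above both and 10 below both (median 0.07). COX18, which inserts a mitochondrially encoded subunit into the membrane, was at 0.82 on its used probe set and −0.04 on the other, COA5 at 0.68 and COA3 at −0.54. Of 11 genes of ATP synthase assembly and of phosphate and nucleotide exchange 3 were above both and 3 below both (median 0.03), with DMAC2L at 0.40 and the phosphate carrier SLC25A3 at −0.30.

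Among 18 genes of mitochondrial transcription and of nuclear regulators of the chain 10 lay between the untreated arrays (median 0.04). Above both were 5 (27.8%) and below both 3 (16.7%), against 51.6% and 22.5% of all tested genes. The receptor gene ESRRA was at 0.51 (10.64 against 10.00 and 10.26, its other probe set −0.21), the mitochondrial RNA polymerase gene POLRMT at 0.49 (others −0.04) and the polymerase gene POLG at 0.43. The regulators NRF1 (0.09), GABPA (0.04), TFAM (0.04) and YY1 (−0.06) were within 0.09 of the untreated mean on the used probe set and were named after their values were seen. Their other probe sets stood lower, at −0.54 for NRF1, −0.16 for GABPA, and medians of −0.13 for TFAM and −0.40 for YY1. Of 17 genes of coenzyme Q synthesis and other quinone reductases 10 were above both (median 0.12). SQOR, which feeds electrons from hydrogen sulfide into the quinone pool, read 9.72 on the NSC-631570 array, against 8.48 and 8.04 on the untreated arrays (1.46, limma adjusted p = 0.09). COQ9 (0.63, its other probe set 0.03) and COQ7 (−0.61), which act together in coenzyme Q synthesis, stood on opposite sides.

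Of 16 genes of the tricarboxylic acid cycle and pyruvate dehydrogenase 8 were above both untreated arrays and 5 below both (median 0.08), led by IDH2 (0.67), OGDH (0.55) and DLAT (−0.47). The other probe sets of OGDH and DLAT had medians of −0.09 and −0.05. DLST (0.12) and CS (0.13) were counted above both, but their other probe sets stood at a median of −1.76 and at −0.59. Those of SUCLG1 (0.14), PDHX (0.28), MDH2 (0.44) and IDH2 (median 0.70) were higher than the untreated mean. Of 19 proteins of the large mitochondrial ribosomal subunit 9 were above both and 4 below both (median 0.03), led by MRPL24 (0.73), MRPL4 (−0.56, others −0.18) and MRPL1 (−0.42). Of 16 genes of the inner membrane scaffold and its proteases 9 were above both and 5 below both (median 0.20), led by MICOS13 (0.80), APOOL (0.64, its other probe set 0.09) and STOML2 (0.51). Among 16 genes of mitochondrial chaperones and import 5 were above both and 7 below both (median −0.05), with the import receptor TOMM22 at −0.74 (11.41 against 12.21 and 12.08, its other probe set −0.06). TIMM17A read 10.27 against 11.15 and 10.28, so it was level with untreated 2 and its difference of −0.44 rests on untreated 1. The protease LONP1 likewise read 10.51 against 9.88 and 10.41 (0.36), a distance of 0.63 from untreated 1 and 0.10 from untreated 2. TOMM20, counted above both at 0.12, gave −1.53 on its other probe set, while those of TIMM23 and LONP1 stood at 0.14 and a median of 0.34. For the 13 subunits encoded in mitochondrial DNA, no probe set naming 1 gene was found under the symbols searched, so they were not analysed here.

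**Figure D4:**
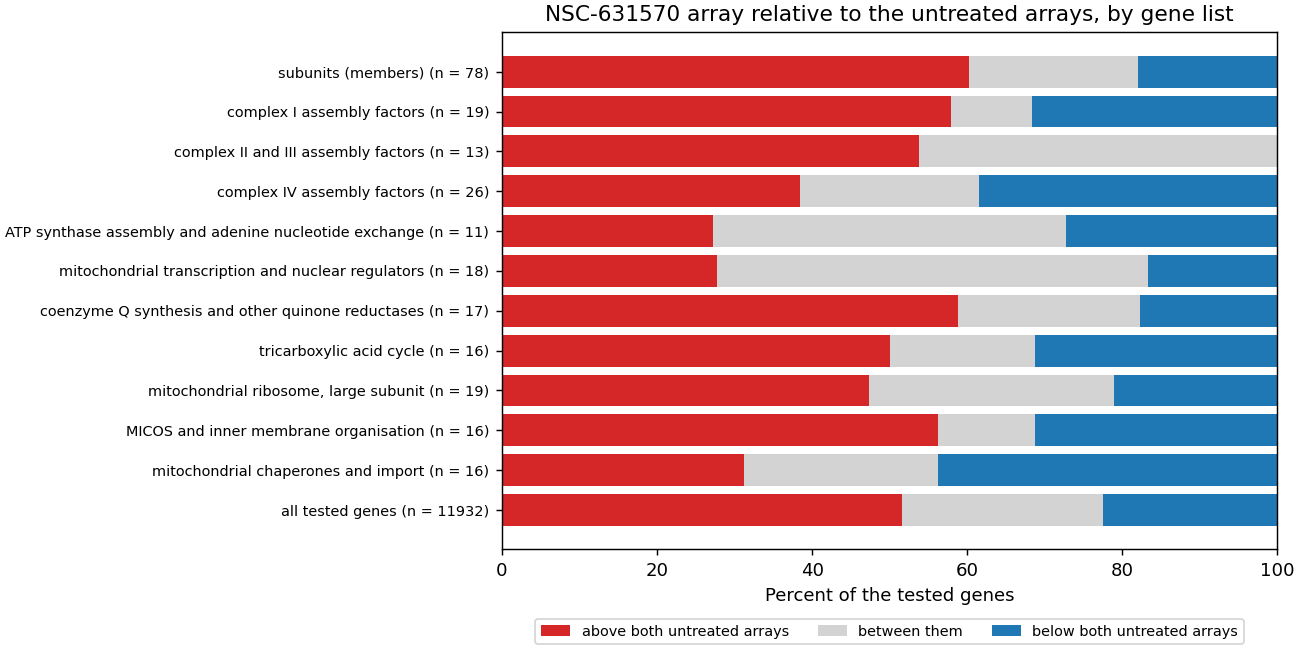
Percent of tested genes of each list whose NSC-631570 signal lay above both untreated arrays (red), between them (grey) or below both (blue), with the number of tested genes beside each name. The subunit genes have 60.3% above and 17.9% below, against 51.6% and 22.5% of all tested genes, and the chaperone and import list has more genes below both (7 of 16) than above both (5 of 16).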

How the data were processed

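RNA of FaDu cells was measured on 3 Affymetrix PrimeView arrays. Deposited log2 signals, 1 per probe set, came from Expression Console, per the submitters' processing notes. Its algorithm and normalization, not given in the sources used here, remain unknown. The log2 scale was read from the values. They were used as deposited. Probe sets were named through the platform annotation: 44988 named 1 gene. Each gene was read from its brightest probe set, and genes under the 40th percentile of probe set means (5.85) were not tested. Limma (version 3.58.1, R version 4.3.3) was fitted over all 11932 genes, with 1 residual and 6.90 prior degrees of freedom, a prior SD of 0.19 and Benjamini-Hochberg adjustment at 0.05. The fit takes the spread of the NSC-631570 array to equal that of the untreated pair. Precision is limited by having 3 arrays. On simulated arrays of 11932 genes for this comparison, 7 of 50 genes changed 2-fold and 48 of 50 changed 4-fold were called, beside 5 unchanged genes. The simulated arrays shared the same spread, with no shift between arrays and no 5′ difference. These counts therefore need not hold for the deposited arrays. Members and lists were chosen with earlier results of these data known. Named members were, per complex, the 4 with the largest difference and the 2 with the brightest untreated signal, the cytochromes, paralogue sets, and genes with 3 or more probe sets all on 1 side, besides up to 3 genes per other list. Further members were named to describe their groups, after their values were seen. Promoter sequences are RefSeq's, GRCh38.p14. Alternatives covered normalization, scaling, filter, probe sets, prior and each untreated array.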

Additional observations from a re-analysis of the deposited data

How the results depend on the processing

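No paired analysis was possible, with a single NSC-631570 array and no label that links it to either untreated array. No subunit gene passed the threshold under the 8 alternatives with a test on genes or gene means, and 1 probe set of NDUFA10 did when each probe set was tested on its own (1 call, median of its probe sets −0.68). Over all genes 8 calls became 4 after quantile normalization, 136 with a common median over all probe sets, 50 with the tested genes set to a common median, 4 without a filter, 21 with the filter at the 60th percentile, 3 with probe sets averaged per gene, 799 with probe sets one by one, 121 without _x_at and _s_at probe sets and 31 with an intensity trend in the prior. The cause of these moves was not tested. Setting the tested genes to a common median, which took the median of all tested genes to −0.08, gave −0.04 for the subunit genes, −0.01 for complex I, −0.18 for complex II, −0.04 for complex III, −0.44 for cytochrome c, −0.07 for complex IV and −0.08 for the ATP synthase. It turned the direction of ATP5MC1 (−0.17), ATP5MC3 (−0.06), COX7A2L (−0.10), COX7B (−0.12), COX8A (−0.04), NDUFA1 (−0.07), NDUFB9 (−0.15), SDHA (−0.04), SDHD (−0.18) and UQCRH (−0.17). SDHD was −0.01 after quantile normalization, −0.48 with the mean and −0.69 with the median of its probe sets. With the mean of probe sets NDUFB9 was −0.03 and SDHA −0.03. Without _x_at and _s_at probe sets NDUFA13 was −0.56, COX4I1 −0.25, SDHC 0.35 and cytochrome c −0.02. The complex II median was −0.01 after quantile normalization, 0.06 with a common median over all probe sets, −0.37 with the mean of probe sets, −0.50 with probe sets one by one, 0.35 without _x_at and _s_at probe sets, where it rests on SDHC as the 1 gene tested, and −0.08 to −0.05 without either untreated array in turn. The subunit median ran between 0.09 and 0.21 in that case. Of 33 tested named members 20 kept their direction under every one of the 9 tested alternatives that gave them a value, NDUFS7, NDUFA10, ATP5MK and CYC1 among them. Leaving out an untreated array leaves no residual degree of freedom and no test.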
